A study of Mus musculus with 6 samples.

Results

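The transcripts of p53 and of genes that p53 is known to control were examined in the mouse pre-osteoblast line MC3T3-E1 after knockdown of Hdac4. The 35 genes comprise Trp53 itself and 34 of its targets and partners, taken as a fixed list of symbols and matched through Ensembl gene identifiers to the deposited counts of 53801 genes, where all 35 were found. RNA was sequenced from 3 control libraries, whose cells carried a scrambled non-silencing hairpin, and from 3 Hdac4-knockdown libraries, whose cells carried a hairpin against Hdac4. Both groups were infected with a lentivirus that also carries the fluorescent protein ZsGreen1 and a puromycin resistance gene, and both were selected with 5 μg/mL puromycin for 7 days. The libraries were made from poly-A RNA with a kit that does not mark strand. The labels call the hairpin Hdac4-shRNA, and the study's account of the sequencing names it as Hdac4-shRNA3. All knockdown libraries therefore stem from 1 hairpin. An effect of losing Hdac4 cannot be told apart from an effect particular to that hairpin or from any other difference between the cells of the groups. The labels describe 3 independent RNA samples per group and do not say that these came from separate infections, so the p-values measure the spread between these samples.

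The p53 protein, encoded by Trp53, is a transcription factor that is held at a low level in unstressed cells because Mdm2 marks it for destruction. DNA damage and other stresses free p53 from Mdm2, and it then switches on genes that stop the cell cycle, repair DNA, adjust metabolism or start apoptosis. Mdm2 is itself a target, so the pathway limits its own activity. Most of this control acts on the protein, and the level of the Trp53 transcript alone is not a measure of p53 activity.

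The hairpins are printed because they define the groups, and 3 promoter stretches because they hold the p53 consensus matches in the promoter windows searched. In the hairpins, all bases are in lower case.
Hdac4-shRNA3: gcatgaggcacagttgcatga
scramble: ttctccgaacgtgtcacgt

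RefSeq promoter windows on GRCm38.p6, from 250 bases before to 50 after the annotated start, were found for 27 of the 35 genes (37 windows, since several genes have more than 1 start). They were searched for the p53 consensus, a palindrome of 10 bases that p53 binds as a tandem pair. A match had both C(A or T)(A or T)G cores intact, at most 2 mismatches over the 20 bases and a spacer of at most 13 bases. Since the consensus is palindromic, both strands were covered. Of the 37 windows, 3 held a match (8.11%), against 2.12% of all 32841 windows. Another pattern, CATG in both arms without a spacer and with the other bases free, was in 0 of the 37 windows and in 0.713% of all. The 3 matches are given 5′ to 3′ on the gene's own strand with the 2 arms of the match in capitals, at chr7:45467059-45467119 (minus strand) for Bax, chr9:58249901-58249967 (minus strand) for Pml and chr10:41887233-41887295 (plus strand) for Sesn1, all upstream of the annotated start of their window. For Sesn1 this is a start inside the gene, which spans 41809935 to 41908424, so its match lies within the gene.
Bax: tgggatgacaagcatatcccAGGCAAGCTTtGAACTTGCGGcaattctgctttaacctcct
Pml: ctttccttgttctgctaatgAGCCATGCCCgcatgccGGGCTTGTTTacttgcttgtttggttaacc
Sesn1: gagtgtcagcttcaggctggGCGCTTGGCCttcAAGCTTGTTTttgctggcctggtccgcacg
The Pml match had 1 mismatch, and those of Bax and Sesn1 had 2 each. Of these 3 genes, Bax rose, Pml fell and Sesn1 did not pass the test, with values given below. A match is a description of letters, not of binding, and many p53 sites lie in introns outside these windows.

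Each library held between 29096544 and 31651826 counts on genes. Hdac4, the targeted gene, was at 40.7, 40.2 and 39.9 CPM (counts per library size after TMM normalization) in the control libraries and at 30.7, 28.8 and 29.5 CPM in the Hdac4-knockdown libraries, or 73.6% of the control mean (log2 fold change -0.44, SE 0.0570, adjusted p = 8.98e-07). Of 6 osteoblast markers, the early factor Runx2 was at 69.9 ± 4.64 CPM in control and 79.5 ± 5.67 CPM in Hdac4-knockdown libraries (SD, n = 3), with overlapping groups but called higher (log2 fold change 0.19, adjusted p = 0.00719). Sp7, the osteoblast factor osterix, rose from 2 to 7 counts in control to 68 to 112 in knockdown libraries (log2 fold change 4.18). It passed the expression filter only through the knockdown libraries, so its call is not counted as support. The other tested markers, Runx2 and Col1a1, were called higher, whereas Alpl, Bglap and Ibsp were too low to be tested, with at most 12 counts in any library. Alpl, the alkaline phosphatase of osteoblasts, had at most 3 counts in every library, and Ibsp had 0 in all control libraries. The summed level of the osteoblast markers was 392.3 to 417 CPM in control and 10892 to 11467 CPM in Hdac4-knockdown libraries, mostly Col1a1. In contrast, 5 of 5 muscle markers, among them the myogenic factor Myod1, were measured at a summed 829 to 868 CPM in control and 112 to 127 CPM in Hdac4-knockdown libraries, mostly Des, and all 5 fell. The 5 neural markers summed to 434 to 454 CPM in control and 84.1 to 92.3 CPM in knockdown libraries, with 3 tested and 3 lower. Nefl was counted 7175 to 7696 times in control libraries and at most 2 times in knockdown libraries (log2 fold change -12.7). Tubb3 (-1.10) and Map2 (-1.49) fell less. As the background for the marker lists, 38.0% of all tested genes were called higher and 37.1% lower. Macrophage, endothelial, epithelial and adipocyte markers summed to at most 8.91 CPM per list in every library, and Adgre1, Emcn and Cfd were at 0 in all 6. Of the tested genes in these lists, Krt14 (log2 fold change 0.42), Pecam1 and Csf1r were called higher, and Cd68 and Krt8 were not called. Pecam1 had 6 to 7 counts in control and 72 to 75 in knockdown libraries, and Csf1r had 3 to 6 and 19 to 23. Both passed the expression filter only through the knockdown libraries.

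Over all genes, 75.1% of the 14531 that passed the expression filter were called, that is, differed with an adjusted p-value below 0.05 in edgeR's quasi-likelihood F test and by more than 0.05 on the log2 scale. The share was 38.0% for higher and 37.1% for lower genes. Of the p53 genes, 34 were tested, and 31 were called (91.2%), 20 higher (58.8%) and 11 lower (32.4%). Among genes with a mean of at least 100 counts per library, a limit set after the values were seen, 78.5% were called, 35.3% higher and 43.2% lower, whereas 31 of the 33 p53 genes at that level were called, 20 higher and 11 lower. Every tested p53 gene had at least 22 counts in every library, so none passed the filter through 1 group alone. The median log2 fold change was 0.39 over the 34 tested p53 genes and 0.01 over all genes tested. The groups did not overlap for 30 of the 34 (88.2%), against 76.8% of all genes. For each of these 30, the exact permutation test (2-sided) gave p = 0.1, the smallest that 3 libraries against 3 allow.

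Changes beyond 1 on the log2 scale were divided between the directions. Ddit4l, Zmat3, Fas, Trp53inp1, Phlda3 and Sesn2 rose by more than 1 (6 of 34, or 17.6%, against 16.5% of all genes), and Pmaip1, Gdf15, Cd82, Plk3 and Plk2 fell by more than 1 (5 of 34, or 14.7%, against 10.6%). Beyond 0.5, 14 rose (41.2%, against 24.6% of all genes) and 5 fell (14.7%, against 19.8%). The share of increases was thus above the background beyond 0.5 and near it beyond 1, and no test of the list was made.

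**Figure D1:**
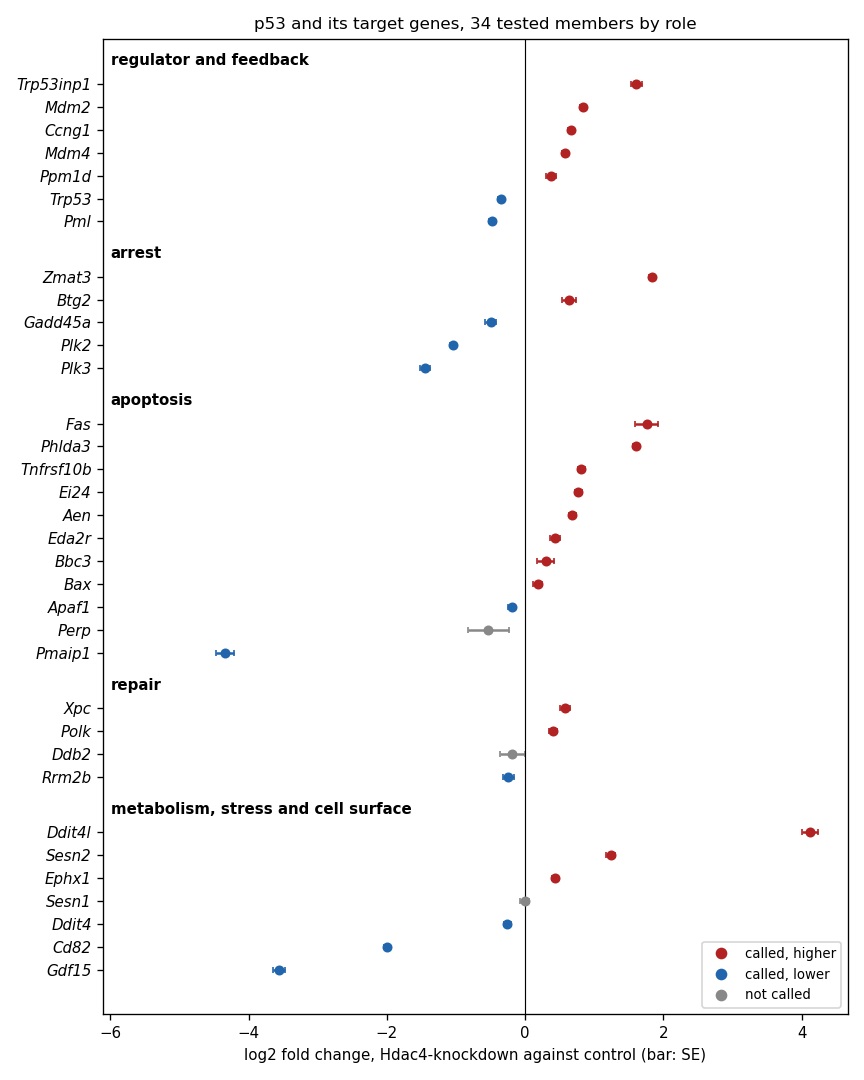
Log2 fold change (x axis, Hdac4-knockdown against control) of the 34 tested p53 genes (y axis), grouped by role, with bars for 1 standard error and colours for the call. Ddit4l at 4.12 and Pmaip1 at -4.34 are the extremes, and each of the groups holds genes on both sides of 0.

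The transcript of p53 itself fell, while 5 of the 6 genes around it that set its level or activity rose, where 38.0% of all genes did. Trp53 (ENSMUSG00000059552; chromosome 11, 69580359 to 69591873) was at 187, 191 and 194 CPM in control libraries and at 148, 153 and 149.8 CPM in Hdac4-knockdown libraries. The ranges did not overlap, and the knockdown level was 78.7% of control (log2 fold change -0.35, SE 0.0403, adjusted p = 2.29e-07). The annotated pseudogene Trp53-ps had at most 1 count in any library. Mdm2 (ENSMUSG00000020184; chromosome 10, 117688875 to 117710758), the ubiquitin ligase that removes p53, was at 181, 175 and 188 CPM in control and at 341, 304 and 328 CPM in knockdown libraries. Every knockdown library lay far above every control library, with a mean 1.79 times that of control (log2 fold change 0.84, SE 0.0460, adjusted p = 2.21e-12). Mdm4 (ENSMUSG00000054387; chromosome 1, 132959484 to 133030561), which binds p53 and blocks its transactivation domain, was at 92.1, 88.3 and 91.4 CPM and at 142, 130.05 and 133 CPM, again without overlap and 1.49 times the control mean (log2 fold change 0.57, SE 0.0457, adjusted p = 7.92e-10). Its pseudogene Mdm4-ps had at most 4 counts.

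The relation of Mdm2 to Trp53 does not depend on how libraries are scaled, since both are counted in the same library. Per kilobase of exon, the ratio of Mdm2 to Trp53 was 0.728 to 0.773 in the control libraries and 1.58 to 1.84 in the Hdac4-knockdown libraries. The order of these transcripts was thus reversed in every library of the knockdown group. The ratio of Mdm2 to Mdm4 moved less, from 5.71 to 5.99 in control to 6.81 to 7.18 in knockdown libraries. These pairs were chosen with the values known and are given as a description.

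The other feedback genes included the largest increase of this role. Trp53inp1 (ENSMUSG00000028211; chromosome 4, 11156431 to 11174379), a nuclear protein that promotes p53 phosphorylation and autophagy, was at 14.7, 13.8 and 15.4 CPM in control and at 48.6, 39.5 and 45.4 CPM in knockdown libraries, 3.05 times the control mean (log2 fold change 1.61, SE 0.0784, adjusted p = 3.39e-13). The spread was wider among the knockdown libraries, yet the lowest of them was well above the highest control. Ccng1, which encodes cyclin G1 and recruits a phosphatase to Mdm2, rose from 204 ± 3.31 to 323 ± 23.1 CPM (SD, n = 3; log2 fold change 0.66, SE 0.0473, adjusted p = 1.44e-10). Ppm1d, the Wip1 phosphatase that switches off p53 signalling, rose from 19.99 ± 1.42 to 25.9 ± 1.98 CPM (SD, n = 3; log2 fold change 0.38, SE 0.0757, adjusted p = 0.000175). Pml, the scaffold of nuclear bodies where p53 is modified, went the other way, from 122 ± 5.12 to 87.5 ± 4.16 CPM (SD, n = 3; log2 fold change -0.48, SE 0.0484, adjusted p = 2.82e-08). Trp53 and Pml were the only 2 of these 7 genes that fell, under the main normalization and each of the others tried.

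**Figure D2:**
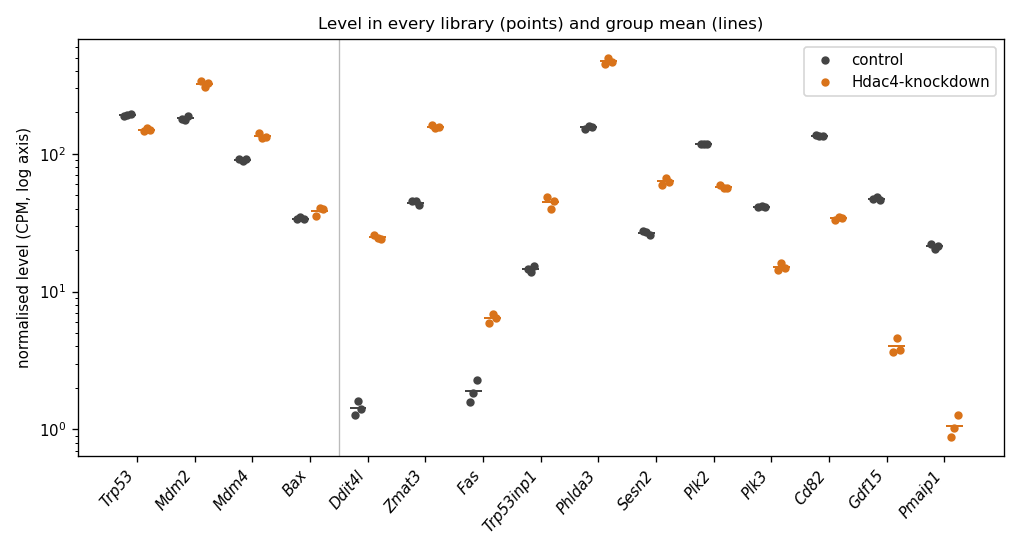
Normalised level (y axis, CPM, log axis) of Trp53, Mdm2, Mdm4 and Bax (left of the grey line) and of the 11 p53 genes with a log2 fold change beyond 1 (right, ordered by fold change) in each of the 3 control and 3 Hdac4-knockdown libraries. Points are libraries and short lines group means, and the groups are separate for each gene drawn, with the closest approach for Bax (34.5 against 35.2 CPM).

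The genes grouped under arrest, not all of which restrain the cell cycle, moved in both directions. Of the 5 tested, 2 were higher and 3 lower (background 38.0% higher and 37.1% lower). Zmat3 (ENSMUSG00000027663; chromosome 3, 32334792 to 32366014), an RNA-binding protein that acts in growth suppression downstream of p53, was at 45.2, 45.2 and 42.3 CPM in control and at 162, 155 and 156 CPM in knockdown libraries. The libraries within each group were close together, and the knockdown mean was 3.57 times the control mean (log2 fold change 1.83, SE 0.0472, adjusted p = 1.19e-17). Btg2, an antiproliferative cofactor of mRNA deadenylation, rose from 9.53 ± 1.42 to 14.8 ± 1.00 CPM (SD, n = 3; log2 fold change 0.64, SE 0.103, adjusted p = 1.53e-05). Cdkn1a, the gene of the p21 inhibitor of cyclin-dependent kinases and the best known arrest target, was not in the list of 35. It was higher by 1.09 on the log2 scale (SE 0.0399, adjusted p = 3.31e-15), between Zmat3 and Btg2.

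The 2 polo-like kinase genes fell together. Plk3 (ENSMUSG00000028680; chromosome 4, 117128655 to 117133963), a stress-activated kinase, was at 41.1, 41.9 and 41.1 CPM in control and at 14.3, 16.2 and 14.9 CPM in knockdown libraries, 36.6% of the control mean (log2 fold change -1.45, SE 0.0660, adjusted p = 1.13e-13). Plk2 (ENSMUSG00000021701; chromosome 13, 110395046 to 110400844), which acts in centriole duplication, was at 118, 119 and 117 CPM and at 59.6, 56.2 and 56.2 CPM, 48.5% of control (log2 fold change -1.04, SE 0.0456, adjusted p = 5.45e-14). For both, the values within a group were nearly equal beside the gap between the groups. Gadd45a, a stress sensor that inhibits Cdk1 complexes, fell from 16.9 ± 0.331 to 12.0 ± 0.630 CPM (SD, n = 3; log2 fold change -0.50, SE 0.0806, adjusted p = 1.66e-05), and 19.1% of its exon bases are shared with E230016M11Rik. Rprm, the arrest gene reprimo, had 0 counts in 5 libraries and 1 count in Hdac4-knockdown replicate 3, under the floor of 3 counts, and was not tested.

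Among the 11 genes of apoptosis, 8 rose, 2 fell and 1 did not pass the test, where 38.0% of all genes rose and 37.1% fell. Of all 35 genes, Phlda3 had the highest level per kilobase of exon in both groups, and its share of their summed CPM was 7.31% to 7.64% in control and 16.3% to 18.1% in knockdown libraries. Phlda3 (ENSMUSG00000041801; chromosome 1, 135766119 to 135769136), whose product competes with Akt for membrane lipids and so dampens survival signalling, was at 152, 159 and 156 CPM in control and at 452, 495 and 467 CPM in knockdown libraries, 3.03 times the control mean (log2 fold change 1.60, SE 0.0427, adjusted p = 2.19e-17). Every knockdown library was above every control library.

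The death receptor genes Fas and Tnfrsf10b rose as well. Fas (ENSMUSG00000024778; chromosome 19, 34290666 to 34327772), the receptor of Fas ligand, was at 1.57, 1.84 and 2.28 CPM in control and at 5.88, 6.89 and 6.44 CPM in knockdown libraries, from 48 to 65 counts against 182 to 222. It had few counts, yet its groups were far apart and its knockdown mean was 3.38 times that of control (log2 fold change 1.76, SE 0.162, adjusted p = 7.44e-09). Tnfrsf10b, the mouse receptor of the ligand TRAIL, rose from 40.5 ± 0.571 to 71.2 ± 4.14 CPM (SD, n = 3; log2 fold change 0.81, SE 0.0541, adjusted p = 4.80e-11). Eda2r, the X-linked receptor of ectodysplasin A2, rose from 30.9 ± 1.07 to 42.0 ± 4.75 CPM (SD, n = 3; log2 fold change 0.44, SE 0.0722, adjusted p = 1.93e-05). Aen, a nuclease induced by p53, rose from 65.5 ± 3.12 to 105 ± 2.07 CPM (log2 fold change 0.68), and Ei24, an endoplasmic reticulum protein, from 47.0 ± 1.28 to 80.3 ± 3.08 CPM (log2 fold change 0.77; SD, n = 3 for both). All of these had separate groups.

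Of the genes of the mitochondrial route, Pmaip1 fell steeply, while Bbc3, Bax and Apaf1 differed by at most 0.30 on the log2 scale. Pmaip1 (ENSMUSG00000024521; chromosome 18, 66458533 to 66465565), which encodes the BH3-only protein Noxa, was at 22.0, 20.5 and 21.5 CPM in control and at 0.873, 1.02 and 1.26 CPM in knockdown libraries. It was counted 613 to 672 times in each control library and 27 to 38 times in each knockdown library, a 20.3-fold lower mean (log2 fold change -4.34, SE 0.127, adjusted p = 9.19e-17), and it ranked 114 from the lowest of the 14531 genes tested. Bbc3, which encodes the related protein Puma, was at 8.35, 9.69 and 7.93 CPM and at 8.60, 11.5 and 11.9 CPM. Its groups overlapped (exact permutation p = 0.2), its log2 fold change was 0.30 (SE 0.121, adjusted p = 0.0313), and its call was lost without control replicate 1 or 3 and without Hdac4-knockdown replicate 2 or 3 (0.26, 0.23, 0.24 and 0.23). Per kilobase, the ratio of Pmaip1 to Bbc3 was 1.65 to 2.11 in control and 0.0690 to 0.0828 in knockdown libraries.

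Bax (ENSMUSG00000003873; chromosome 7, 45461697 to 45466898), the effector that permeabilizes the outer mitochondrial membrane, was at 33.5, 34.5 and 33.6 CPM in control and at 35.2, 40.4 and 39.9 CPM in knockdown libraries. The lowest knockdown library was just above the highest control library, and the log2 fold change was 0.18 (SE 0.0624, adjusted p = 0.0126). The adjusted p rose to 0.0538 without control replicate 1, 0.0537 without control replicate 3 and 0.0539 without Hdac4-knockdown replicate 3. Of the exon bases of Bax, 12.2% are shared with Gm45808. Apaf1, the scaffold of the apoptosome, fell slightly, from 63.1 ± 2.52 to 55.3 ± 1.17 CPM (SD, n = 3; log2 fold change -0.19, SE 0.0503, adjusted p = 0.00211), and its adjusted p was 0.0749 with upper quartile normalization. Perp, a membrane protein of desmosomes, had 22 to 57 counts per library and overlapping groups (exact permutation p = 0.3; log2 fold change -0.53, SE 0.297, adjusted p = 0.113). Without Hdac4-knockdown replicate 2, its value was -0.87 and its adjusted p 0.0222, whereas without control replicate 1 or Hdac4-knockdown replicate 3 it was -0.33 or -0.34 (adjusted p = 0.395 and 0.353).

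Of the 4 repair genes, 2 rose, 1 fell and 1 did not pass the test, against the same background. Xpc, which recognizes damaged bases in nucleotide excision repair, rose from 21.3 ± 1.30 to 31.9 ± 2.40 CPM (SD, n = 3; log2 fold change 0.58, SE 0.0718, adjusted p = 5.10e-07). Polk, a translesion DNA polymerase, rose from 40.6 ± 1.17 to 53.8 ± 4.78 CPM (SD, n = 3; log2 fold change 0.40, SE 0.0627, adjusted p = 9.14e-06). Both had separate groups. Rrm2b, the p53-inducible subunit of ribonucleotide reductase, was at 22.2, 20.01 and 20.7 CPM in control and at 18.6, 15.3 and 19.5 CPM in knockdown libraries (log2 fold change -0.24, SE 0.0863, adjusted p = 0.0172). Its call was lost without control replicate 1 (-0.21), without Hdac4-knockdown replicate 2 (-0.14), with library size alone (-0.18) and with upper quartile normalization (-0.15). Ddb2, the other damage sensor of excision repair, had 86 to 130 counts per library and overlapping groups (log2 fold change -0.18, SE 0.176, adjusted p = 0.357). Without control replicate 1 or Hdac4-knockdown replicate 2 its value was -0.037 or -0.077, and without control replicate 3 or Hdac4-knockdown replicate 1 it was -0.29 (adjusted p = 0.185 to 0.874 over these 4), and it was -0.094 with upper quartile normalization. Its exons overlap those of Acp2 over 23.8% of their bases.

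The genes of metabolism, stress signalling and the cell surface held the widest range, with 3 higher, 3 lower and 1 that did not pass the test, against the same background. Ddit4l (ENSMUSG00000046818; chromosome 3, 137621612 to 137628333), an inhibitor of mTORC1 signalling, was at 1.28, 1.60 and 1.40 CPM in control and at 26.0, 24.5 and 24.2 CPM in knockdown libraries. It was counted 39 to 48 times in control and 727 to 803 times in knockdown libraries, and its mean was 17.4 times that of control (log2 fold change 4.12, SE 0.113, adjusted p = 3.35e-17). Its paralogue Ddit4 fell, from 83.0 ± 5.28 to 69.5 ± 2.52 CPM (SD, n = 3; log2 fold change -0.26, SE 0.0525, adjusted p = 0.000209; -0.17 with upper quartile normalization). Per kilobase, Ddit4l amounted to 0.00865 to 0.0123 of Ddit4 in control and 0.206 to 0.234 in knockdown libraries, so Ddit4 was still the more abundant of the pair.

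The sestrins, which restrain mTORC1 when amino acids or energy are short, also parted. Sesn2 (ENSMUSG00000028893; chromosome 4, 132492032 to 132510501) was at 27.5, 26.9 and 25.9 CPM in control and at 59.1, 67.2 and 63.0 CPM in knockdown libraries, 2.36 times the control mean (log2 fold change 1.24, SE 0.0596, adjusted p = 2.75e-13). Sesn1 was at 28.9, 29.8 and 31.2 CPM and at 29.96, 28.1 and 31.8 CPM, with overlapping groups, a log2 fold change near 0 (SE 0.0647, adjusted p = 0.979) and a sign that changed with the normalization. Per kilobase, the ratio of Sesn2 to Sesn1 was 0.954 to 1.09 in control and 2.26 to 2.75 in knockdown libraries.

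A secreted and a membrane protein of this role fell steeply. Gdf15 (ENSMUSG00000038508; chromosome 8, 70629393 to 70632456), a stress-induced cytokine of the TGF-β superfamily, was at 47.0, 49.0 and 46.0 CPM in control and at 3.65, 4.56 and 3.75 CPM in knockdown libraries, an 11.9-fold lower mean (log2 fold change -3.56, SE 0.0851, adjusted p = 3.57e-18). Cd82 (ENSMUSG00000027215; chromosome 2, 93419111 to 93463140), a tetraspanin known as a metastasis suppressor, was at 138, 135 and 134 CPM and at 32.9, 34.9 and 34.1 CPM, a 3.99-fold lower mean (log2 fold change -1.997, SE 0.0474, adjusted p = 3.32e-18). The libraries of a group differed by a few percent for Cd82, and the groups lay far apart. Ephx1, the microsomal epoxide hydrolase, rose from 149 ± 2.33 to 201 ± 5.41 CPM (SD, n = 3; log2 fold change 0.43, SE 0.0408, adjusted p = 1.18e-08). Fewer cells that express a gene and less RNA per cell cannot be told apart in such bulk libraries.

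Levels between genes were compared per kilobase of exon. In control libraries, the highest were Phlda3 at 99.8 ± 2.02, Ephx1 at 76.4 ± 1.19 and Ccng1 at 58.0 ± 0.944 CPM per kb (SD, n = 3). They were followed by Ddit4 at 47.3 ± 3.01, Trp53 at 47.2 ± 0.810 and Cd82 at 45.2 ± 0.656 CPM per kb, of which Ddit4 did not differ from its neighbours beyond the spread. Mdm2 came next at 35.7 ± 1.29 CPM per kb. In knockdown libraries, the same 3 genes led, with Phlda3 at 302 ± 13.9, Ephx1 at 103 ± 2.77 and Ccng1 at 91.9 ± 6.57 CPM per kb, and Mdm2 followed at 63.8 ± 3.65, ahead of Ddit4 at 39.6 ± 1.43 and Trp53 at 37.1 ± 0.712. Gdf15 moved from place 9 to 30 in this order, Pmaip1 from 16 to 34 and Ddit4l from 34 to 18. Across the 34 tested genes, the control level per kb and the log2 fold change had a Spearman correlation of -0.28, in which both measures share the control libraries.

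**Figure D3:**
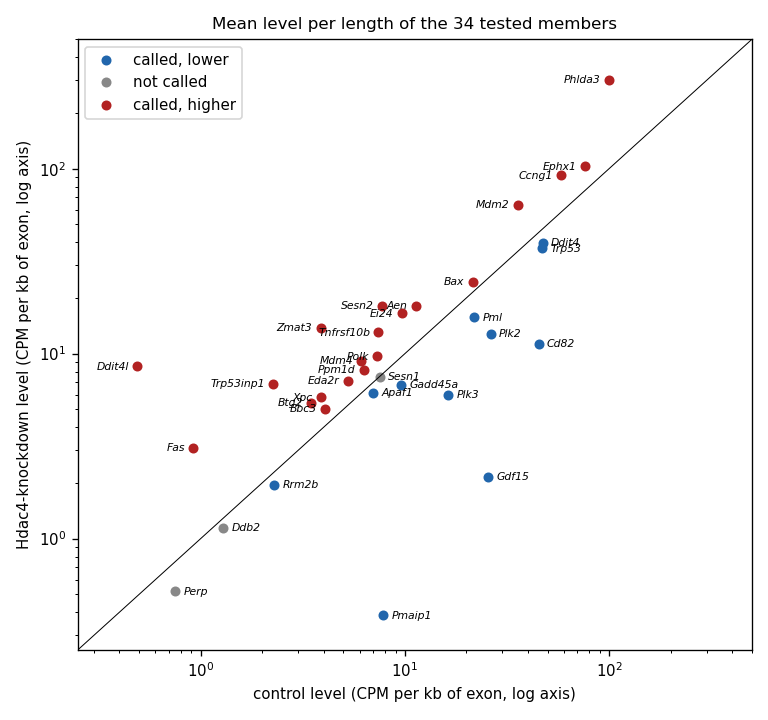
Mean level per kilobase of exon in control (x axis) and Hdac4-knockdown libraries (y axis) for the 34 tested p53 genes, both in CPM per kb on log axes, with the line of equal level and colours for the call. Phlda3 is the highest in both groups, and Gdf15 and Pmaip1 lie farthest below the line.

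The summed level of the 35 genes was 2078 to 2086 CPM in the control libraries and 2731 to 2779 CPM in the Hdac4-knockdown libraries. The cumulative curves show how the list differed from all genes. The curve of the p53 genes lies to the right of that of all genes from Sesn1, near 0, to Tnfrsf10b at 0.81. From Pmaip1 at -4.34 up to -1 it lies to the left, with 14.7% of the p53 genes against 10.6% of all genes called lower beyond 1. Below Pmaip1 no p53 gene remains, and elsewhere the curves cross.

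**Figure D4:**
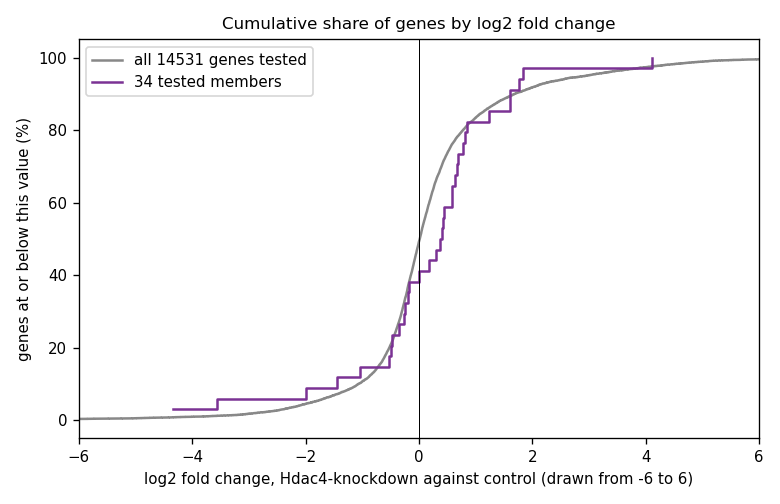
Share of genes (y axis, percent) at or below each log2 fold change (x axis, Hdac4-knockdown against control) for all 14531 genes tested and for the 34 tested p53 genes. The median is 0.39 for the p53 genes and 0.01 for all genes.

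Genes that act upstream of p53 were taken as a list of 25, of which 23 were tested. Of these, 7 rose and 12 fell, with a median log2 fold change of -0.10, beside 38.0% higher and 37.1% lower of all genes. By the rule for named genes, the increases to give are Setd7 (log2 fold change 0.52), a methyltransferase that acts on p53, and the ubiquitin ligases Rchy1 (0.49) and Cop1 (0.39), both of which mark p53 for destruction. The decreases are Ppp1r13b (-1.03), which encodes the p53-binding protein ASPP1, and the kinases Chek2 (-0.83) and Dyrk2 (-0.69), which phosphorylate p53. Each of these 6 had separate groups. Cdkn2a, whose ARF product blocks Mdm2, had 0 counts in all 6 libraries, below the floor of 3 counts, and Trp73 had at most 1. Trp63, the p53 relative of epithelia, was chosen after its values were seen, and was at 0.393, 0.267 and 0.351 CPM in control and at 4.40, 3.91 and 4.95 CPM in knockdown libraries, from 8 to 12 counts against 126 to 149 (log2 fold change 3.69). Its control counts alone would not have passed the expression filter, so its place among the higher genes depends on the knockdown libraries.

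Another list held 21 further p53 targets, Cdkn1a among them, and all 21 were tested. Of these, 12 rose (57.1%) and 7 fell (33.3%), with a median log2 fold change of 0.36, beside 38.0% higher, 37.1% lower and a median of 0.01 over all genes. The largest increases with at least 100 counts were Cgref1 (3.88), a growth regulator with calcium-binding motifs, Sfn (3.39), the 14-3-3 protein sigma that holds back mitotic entry, and Psrc1 (2.33), a spindle-associated protein. The largest decreases were Aifm2 (-1.18), an oxidoreductase that protects from ferroptosis, and the mitotic proteins Gtse1 (-0.84) and Ckap2 (-0.82). Sfn was at 1.11, 1.60 and 1.40 CPM in control and at 13.9, 15.6 and 13.7 CPM in knockdown libraries, without overlap.

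**Figure D5:**
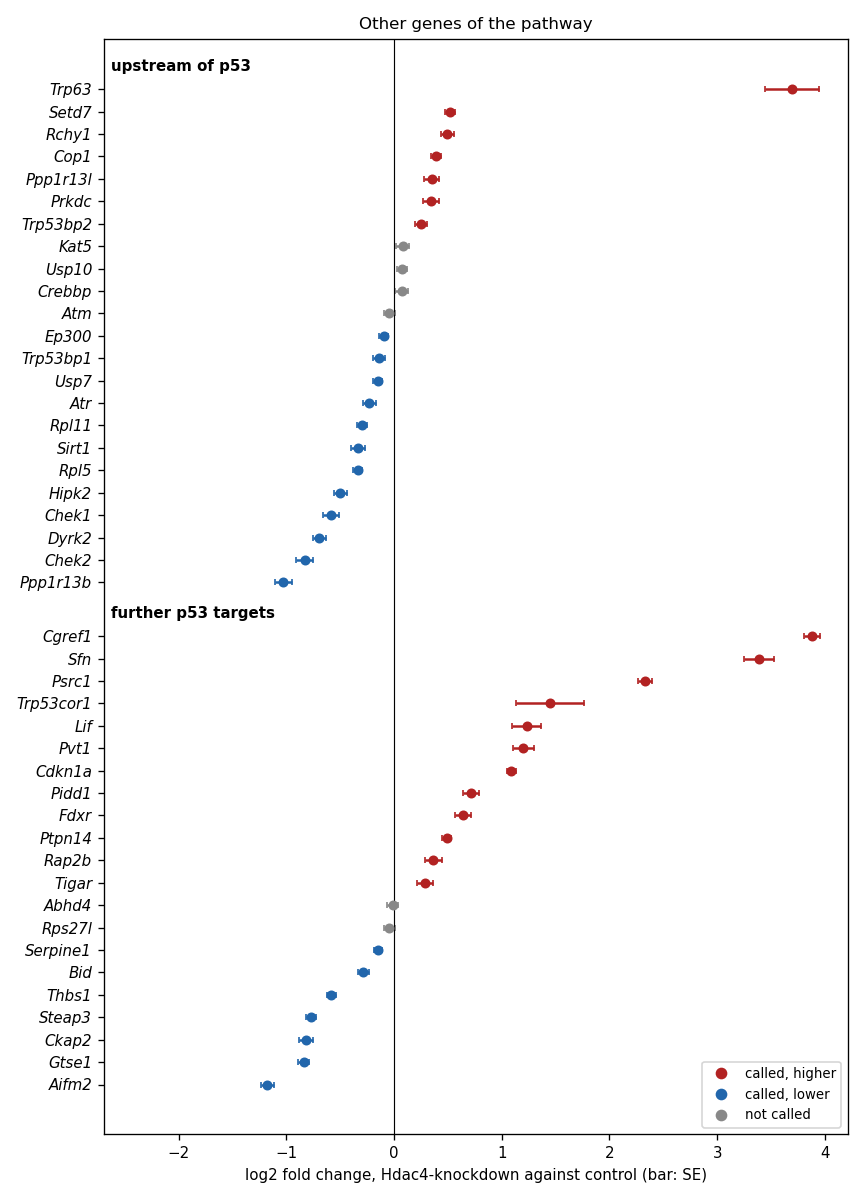
Log2 fold change (x axis, Hdac4-knockdown against control) of the 23 tested genes upstream of p53 and the 21 further p53 targets (y axis), with bars for 1 standard error and colours for the call. Trp63 at 3.69 stands apart from the other upstream genes, which lie between -1.03 and 0.52.

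Other features of the libraries moved with the groups. Each of 10 proliferation genes fell, where 37.1% of all tested genes were called lower. Their summed levels were 3489 to 3535 CPM in control and 1586 to 1643 CPM in knockdown libraries. The tested muscle and neural markers fell and the tested osteoblast markers rose, as given above. The mitochondrial share of counts was 2.05% to 2.17% in control and 2.38% to 2.83% in knockdown libraries, and the share of reads outside genes was 3.17% to 3.41% and 4.64% to 5.07%. Their part in the p53 gene results was not tested.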

How the data were processed

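Per the labels and the file contents, the authors deposited raw counts of reads per Ensembl gene for each library, and their processing notes name FastQC, STAR 2.7.3a, HTSeq 0.12.4 and mm10. The annotation release is not given in the sources used here. Summary lines for reads outside or shared between genes and for multiple alignments (14.3% to 15.0% of reads) were left out. Symbols and GRCm38 positions came from GENCODE M21, which held 53706 of 53801 identifiers. Because reads carry no strand, genes that share exon bases with another gene (8 of the 35) are less certain.

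After filterByExpr and TMM scaling, edgeR 4.0.16 (R 4.3.3) tested the 3 knockdown against the 3 control libraries with its quasi-likelihood F test, with Benjamini-Hochberg adjustment over 14531 genes. Errors are SD of 3 libraries or the SE of the log2 fold change. The p53 genes, lists and roles were chosen with earlier results of these data known. Named were all 35 genes, Hdac4, Cdkn1a and, in the other 2 pathway lists, the 3 largest changes each way among called genes with at least 100 counts on average. In 1 set of counts simulated for this comparison, edgeR recovered 75.5% of 98 planted changes of 0.5 and 93.9% of 98 of size 1 on the log2 scale. It made 3 false calls among 14413 genes tested. The simulation changed only 200 genes and used 1 dispersion for all, whereas 75.1% of genes were called in the data, so these rates need not hold there. Alternatives were other normalizations and filters, DESeq2 1.42.0, limma-voom (limma 3.58.1), a replicate block, other fold change thresholds and leaving out each library. Figures were drawn with matplotlib 3.10.9.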

Additional observations from a re-analysis of the deposited data

How the results depend on the processing

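Over other normalizations, filters, DESeq2 and limma-voom, 20 of the p53 genes were called higher each time and 9 to 11 lower. Upper quartile normalization raised the median log2 fold change of the p53 genes from 0.39 to 0.48, moved the median of all genes by 0.09 and the share of calls that were higher from 50.6% to 57.8%. With a log2 threshold of 0.5, 3579 genes rose and 2879 fell, with 5 lower p53 genes, and 2 upstream genes rose and 5 fell. With a threshold of 1, 2397 genes rose and 1543 fell, 6 p53 genes rose and 5 fell, 1 upstream gene rose and 1 fell, and 7 further targets rose and 1 fell. These thresholds call fewer genes by construction. Leaving out each library in turn gave 18 to 20 higher and 10 to 11 lower p53 genes, with a median of 0.35 to 0.43. The log2 fold change of Sesn1, not called in any setting, changed sign to 0.055 with library size alone, 0.087 with upper quartile normalization, 0.036 with at least 10 counts in every library, 0.013 without control replicate 3, 0.0049 without Hdac4-knockdown replicate 1 and 0.045 without Hdac4-knockdown replicate 2, and ranged from -0.041 to 0.045 over the libraries left out. The cause was not tested. Same-numbered libraries correlated at 0.000626, 0.141 and 0.0207 in their deviations from the group means, and control replicate 1 correlated best with Hdac4-knockdown replicate 3, so the numbers were not taken as pairs. With a replicate block, 20 p53 genes were called higher and 11 lower, and 5523 genes were higher and 5441 lower in all. Perp and Ddb2 had the fewest counts of the tested p53 genes and the largest standard errors (0.297 and 0.176). Rprm had at most 1 count in any library.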
